A study of Mus musculus with 13 samples.

Results

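The smallest mRNA input of the low-input ATAC&mRNA-Seq protocol, 5000 cells, was set against 10000 and 20000 cells processed in the same experiment. Members were chosen by the labels alone: the mRNA libraries of experiment 2, which are 3 of the 13 samples of the series and 3 of its 5 mRNA libraries. Each of the 3 cell numbers is represented by 1 library. All came from E14 mouse embryonic stem cells of the 129/Ola background, grown in medium with serum and leukemia inhibitory factor (LIF), with no treatment and no change of genotype. Per the labels, only the number of cells entering the tube differs between the 3 libraries. In this protocol the cells are permeabilized with mild detergent and their open chromatin is cut by the transposase Tn5. The cells are then lysed, polyadenylated RNA is caught on oligo-dT beads, and the cDNA made on the beads is cut by Tn5 again and amplified. Experiment 1, on another day, has 1 mRNA library from 10000 and 1 from 20000 cells but none from 5000. These libraries serve below only as an outside reference.

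Within experiment 2 each cell number has 1 library, so no test was run and no p-value is given. Whatever was particular to that one tube cannot be told apart from the cell number. In its place, every rule applied to the library from 5000 cells was also applied to the libraries from 10000 and from 20000 cells, each set against the other 2. Those counts show how often a single library of this experiment stood apart. Shares carry 95% Wilson intervals, which cover counting error only.

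Embryonic stem cells keep themselves undifferentiated through a network of transcription factors that includes Pou5f1, Sox2 and Nanog, and LIF sustains that network through STAT3. Their mRNA is unevenly spread over genes: ribosomal proteins, glycolytic enzymes and cytoskeletal proteins hold a large part of it, while many receptors, regulators and zinc finger proteins are present in few copies per cell. A smaller input holds fewer molecules of each mRNA, so rare mRNAs are the ones with the fewest molecules to capture.

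The count table holds 24470 genes. Total counts were 16762472 with 5000 cells, 15506892 with 10000 and 20426252 with 20000, so the smallest input was not the least sequenced. Levels are given in CPM, the usual scaling of counts to a common library total, and 3 counts, the floor used for a count of 0, correspond to 0.179, 0.193 and 0.147 CPM. The 8 fixed markers of embryonic stem cells all had at least 1 CPM, and their summed level was 3445 CPM with 5000 cells, 3502 with 10000 and 3485 with 20000. Pou5f1 had 207, 155 and 233 CPM, Sox2 160, 172 and 179, and Nanog 207, 228 and 221, in the order 5000, 10000 and 20000 cells. Actb, a cytoskeletal actin, had 1063, 1113 and 1181 CPM, and Gapdh, a glycolytic enzyme, had 2277, 2019 and 2109. None of the 5 differed by 2-fold between any pair of these libraries. Markers of other cell types were low in all 3 libraries: the summed level ran from 2.45 to 2.74 CPM for primitive endoderm, from 4.85 to 5.91 for trophoblast, from 28.5 to 33.8 for neural cells, from 0.597 to 1.32 for mesendoderm, from 6.51 to 7.59 for endothelium and from 0.516 to 2.15 for blood. The fibroblast sum, 281, 306 and 325 CPM, was nearly all Vim, a filament protein that stem cells also make, and Col3a1 and Lum had 0 counts in all 3.

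Fewer genes were counted at all with 5000 cells. Of the 24470 genes, 10018 had 0 counts, against 7053 with 10000 cells and 7988 with 20000. The reverse side of the same number is that 14452, 17417 and 16482 genes had at least 1 count. After all 3 libraries were thinned to the smallest total, the genes with 0 counts numbered 10043, 7053 and 8274, so the order did not depend on depth. The order did not follow cell number either, since the library from 10000 cells counted more genes than the one from 20000. In experiment 1 the library from 10000 cells had 10000 genes at 0, close to the value for 5000 cells in experiment 2, and the one from 20000 cells had 8424.

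Fewer genes had each of the lowest counts with 5000 cells, with the widest gap at 1 count. Genes with exactly 1 count numbered 293 with 5000 cells, against 848 and 936 with 10000 and 20000. Genes with exactly 3 counts numbered 269, 652 and 598, and those with exactly 5 counts 273, 462 and 360. Genes with 1 or 2 counts numbered 571, 1610 and 1674, so most of the shortfall in counted genes against 10000 cells lay at 3 counts and over. Genes with 1 or 2 counts made up 3.95% of the genes counted with 5000 cells, against 9.24% and 10.2%. The same flat profile appeared in the experiment 1 library from 10000 cells, with 267 genes at exactly 1 count and a share of 3.82%, while the experiment 1 library from 20000 cells had 900 and 9.83%. A flat profile was thus seen in 1 library from 5000 cells and 1 from 10000, and not in the other library from 10000. Its cause was not tested.

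**Figure D1:**
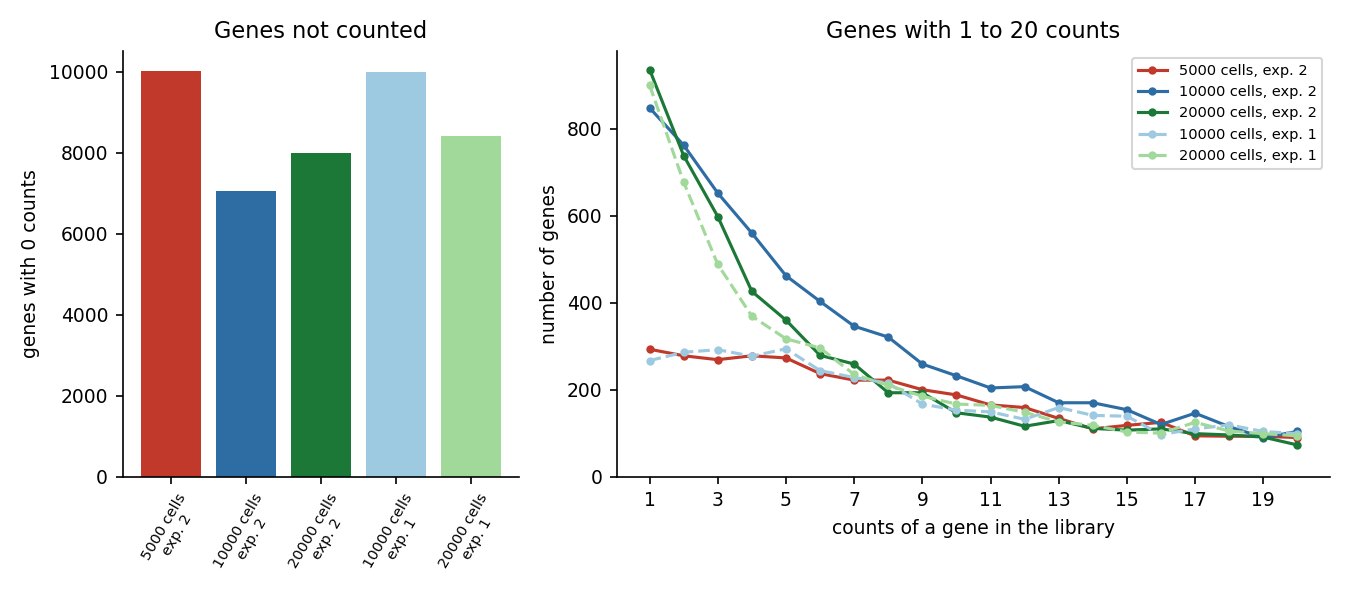
Left, number of genes with 0 counts in each of the 5 mRNA libraries (bars, 1 library each). Right, number of genes (vertical axis) with each count from 1 to 20 (horizontal axis). The library from 5000 cells starts at 293 genes with 1 count and stays nearly flat over the first counts, as does the experiment 1 library from 10000 cells at 267, while the other 3 libraries start between 848 and 936.

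The genes that were lost were those with low levels. Genes were sorted by their mean level in experiment 1, which no rule here used. Of 6522 genes with at least 10 CPM there, 1 had 0 counts with 5000 cells and none with 10000 or 20000. Of 2902 genes between 3 and 10 CPM, 10 were at 0 with 5000 cells, 1 with 10000 and 0 with 20000. Between 1 and 3 CPM the share at 0 was 7.29% (6.28% to 8.45%) of 2221 genes with 5000 cells, against 1.8% and 0.675%. Between 0.3 and 1 CPM it was 35% (32.9% to 37.1%) of 1985 genes, against 11.8% and 12%. The 5000-cell library therefore had a value for nearly every gene above 3 CPM, and the losses grew as the level went down. Among the 7783 genes at 0 in both experiment 1 libraries, 714 had a count with 5000 cells, 2211 with 10000 and 1412 with 20000.

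Olfactory and vomeronasal receptors, chemosensory genes that are silent in most tissues, show the same at the bottom of the scale, in a list written after the counts had been seen. Of their 1471 genes, 79 had a count with 5000 cells, 266 with 10000 and 157 with 20000. Their summed counts were 465, 1040 and 497. Those with a count had on average 5.89 counts with 5000 cells, 3.91 with 10000 and 3.17 with 20000. So with 5000 cells fewer of these genes were counted than with 20000 cells, from a similar sum. The experiment 1 libraries had counts in 42 and 62 of them, at 5.74 and 2.37 counts per counted gene with 10000 and 20000 cells.

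Differences between libraries were then measured on log2(CPM + 1), where the added 1 understates the change of low genes, over the 11326 genes whose mean in these 3 libraries reached 1 CPM. The median absolute difference between 5000 and 10000 cells was 0.44 for genes of 1 to 3 CPM, 0.35 at 3 to 10, 0.23 at 10 to 30, 0.16 at 30 to 100 and 0.11 at 100 CPM and over. Between 10000 and 20000 cells the same medians were 0.33, 0.25, 0.19, 0.15 and 0.13. The added scatter of the 5000-cell library was thus largest below 10 CPM, and above 100 CPM it lay closer to the library from 10000 cells than that one lay to 20000. Against 20000 cells its medians were 0.41, 0.33, 0.24, 0.20 and 0.19. In experiment 1 the medians between 10000 and 20000 cells were 0.38, 0.31, 0.20, 0.14 and 0.10, so in the low bins that pair lay between the pairs with and without 5000 cells.

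The median signed difference, 5000 cells minus the mean of the other 2, was -0.11 over all genes. It was -0.13, -0.14, -0.12 and -0.11 in the first 4 bins and -0.04 at 100 CPM and over. The shift was thus smallest among the most abundant genes, where it was -0.01 against 10000 cells and -0.08 against 20000. The 100 most abundant genes held 43.8% of the counts with 5000 cells, 42.6% with 10000 and 40.9% with 20000. With edgeR's TMM scaling, which sets the bulk of genes level, the median over all genes moved by 0.09 to -0.02. Medians of gene groups below are therefore read against -0.11 and not against 0, with no matching for level.

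A gene is called lower here when its level with 5000 cells was at least 2-fold under both larger inputs on that scale, and higher when at least 2-fold over both. With 5000 cells 152 genes were lower, 1.34% of those tested (1.15% to 1.57%), and 40 were higher, 0.353% (0.259% to 0.481%). Under the same rule the library from 10000 cells had 7 lower genes (0.0618%) and 30 higher ones (0.265%), and the library from 20000 cells had 10 (0.0883%) and 5 (0.0441%). So being low against both others was many times more frequent for 5000 cells than for either larger input. Being high was about as frequent as for 10000 cells. With TMM scaling the 5000-cell library had 124 lower and 56 higher genes, a less uneven split, against 8 and 27 for 10000 cells and 14 and 4 for 20000. With a pseudocount of 0.1 the lower genes numbered 421, 75 and 92, and with a pseudocount of 5 there were 0 in each library.

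The called genes lay at low levels. Of 2030 genes between 1 and 3 CPM, 82 were lower with 5000 cells (4.04%), and of 2858 genes between 3 and 10 CPM, 64 were (2.24%). Of 2835 genes between 10 and 30 CPM, 6 were (0.212%). None of the 2236 genes between 30 and 100 CPM was lower, nor any of the 1367 above, which allows shares of up to 0.172% and 0.280%. The higher genes were 33 of 1 to 3 CPM (1.63%) and 7 of 3 to 10 CPM (0.245%), with none at or above 10 CPM. In the lowest bin the share of higher genes was 1.33% for the library from 10000 cells, within the counting interval of the 5000-cell share. For 20000 cells 0.394% of genes were lower in the lowest bin, and 0.0350% were higher between 3 and 10 CPM.

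**Figure D2:**
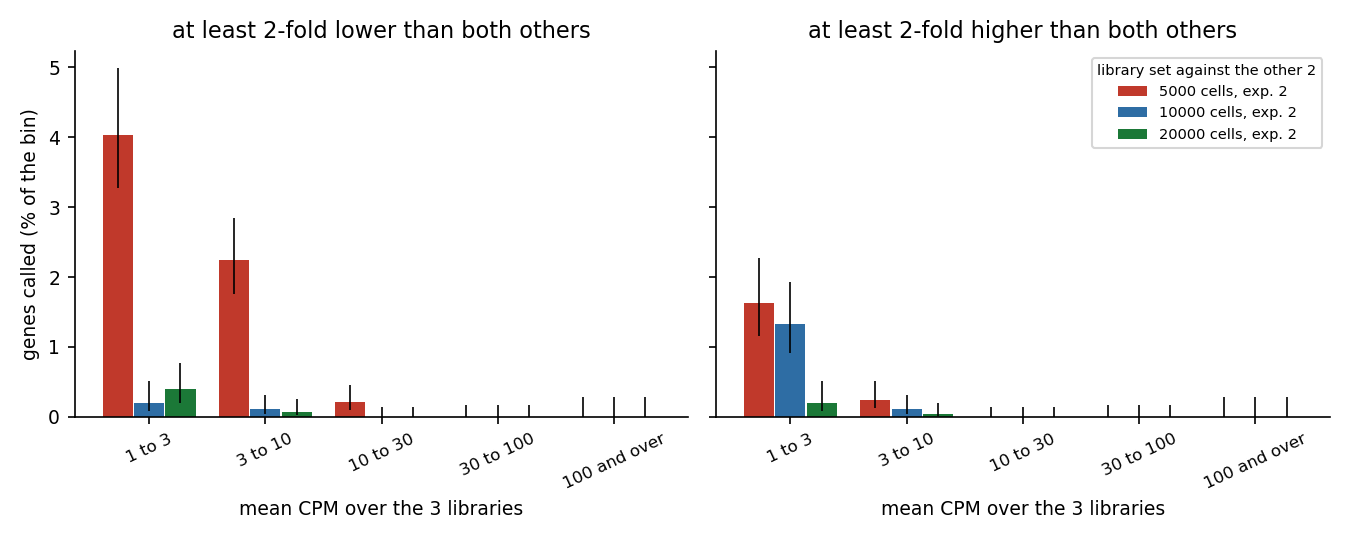
Share of genes (vertical axis, percent of the genes in the bin) at least 2-fold lower, left, or higher, right, than both other libraries of experiment 2, by mean level in CPM (horizontal axis), for each of the 3 libraries in turn. Lines are 95% Wilson intervals for counting error. The 5000-cell library stands out on the left at 4.04% and 2.24% in the first 2 bins, and on the right it is near the library from 10000 cells in the first bin.

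The rule is a threshold, and genes sit on both sides of it. Just inside were Fez2, Smc1b and Magi1, whose smaller difference was -1.0, and outside it lay Dock2 and Gm20300 at -0.995. Just inside on the higher side were Plac8 at 1.01 and Gsap at 1.02, and just outside were Cdkn2b at 0.995 and Rgcc at 0.989.

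Among the lower genes, 28 had a mean of at least 5 CPM and 6 of at least 10 CPM. Their median level was 0.835 CPM with 5000 cells, 4.0 with 10000 and 3.65 with 20000. The 6 most abundant have unrelated roles. Rrn3, an initiation factor of RNA polymerase I, had 245 counts with 5000 cells, 472 with 10000 and 738 with 20000. Malat1, an abundant nuclear long noncoding RNA, had 195, 507 and 516. Pex13, part of the machinery that imports proteins into peroxisomes, had 191, 406 and 489. The 2-fold rule used these same counts, so the gaps are a description. Nbr1, a receptor for autophagy cargo, had 119, 270 and 319, and the zinc finger gene Zfp592 had 104, 224 and 320. Purb, a protein that binds purine-rich single strands, had 115, 314 and 333 counts, or 6.86, 20.2 and 16.3 CPM.

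Of the genes with at least 5 CPM, the largest drop was in Notch4, a Notch receptor (mm10 chromosome 17, 34564295 to 34588543). It had 27 counts with 5000 cells, 95 with 10000 and 159 with 20000, which is 3.8 and 4.83 times less in CPM. The experiment 1 libraries had 48 and 47 counts of it, so the 5000-cell value was below all 4 larger inputs. Acss2, which makes acetyl-CoA from acetate (chromosome 2, 155518043 to 155562743), had 52, 161 and 209 counts, but 39 and 38 in experiment 1. For Acss2 the 5000-cell library was thus inside the range of the larger inputs of both days. It overlaps Acss2os on the opposite strand, and the use of strand in counting is not given in the sources used here.

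Ncoa6, a coactivator of nuclear receptors on the same chromosome (155390656 to 155440783), had 32, 91 and 156 counts. Tbl1x, a subunit of the NCoR corepressor complex (chromosome X, 77511227 to 77660265), had 34, 93 and 150, with 112 and 128 in experiment 1. Both are cofactors of transcription, and both were below all 4 larger inputs. Acsl3, an acyl-CoA synthetase for long-chain fatty acids (chromosome 1, 78657825 to 78707743), had 73, 190 and 250 counts, and it overlaps Utp14b on the same strand. Mtr, methionine synthase (chromosome 13, 12186538 to 12258113), had 36, 126 and 110.

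Further named drops were in genes of unrelated roles. Slc37a1, a sugar-phosphate exchanger (chromosome 17, 31295483 to 31350709), had 44, 140 and 144 counts. Vps54, a subunit of a complex that tethers vesicles at the Golgi (chromosome 11, 21239032 to 21321133), had 62, 150 and 221. Myof, a ferlin of the plasma membrane (chromosome 19, 37899036 to 38043577), had 39, 110 and 139. All of these were below their experiment 1 counts too, which were 67 and 54 for Slc37a1, 253 and 107 for Vps54 and 118 and 187 for Myof. Cipc, an inhibitor of the circadian activator CLOCK (chromosome 12, 86947041 to 86965364), had 63, 137 and 256. Fkbp10, a prolyl isomerase that helps fold collagen (chromosome 11, 100415694 to 100424840), had 59, 126 and 245. Vps54 overlaps Ugp2 and Fkbp10 overlaps Nt5c3b, each on the opposite strand.

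Below 5 CPM the lower genes included several regulators, named after their values were seen. Ash1l, a histone methyltransferase, had 7 counts with 5000 cells, 101 with 10000 and 83 with 20000. Kif26a, an atypical kinesin, had 4, 53 and 118. Ank3, an ankyrin, had 1, 46 and 60. These 3 were lower by a margin far past the threshold, and all 3 were also below both experiment 1 libraries. Among signalling genes were the Wnt ligand Wnt11 with 1, 25 and 63 counts and the arrestin Arrb1 with 1, 26 and 74. The kinase Jak2, from the list of LIF and STAT3 signalling genes, had 7, 29 and 48. The helicase Brip1 had 23, 84 and 127, and the kinetochore protein Mis12 had 16, 51 and 113.

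**Figure D3:**
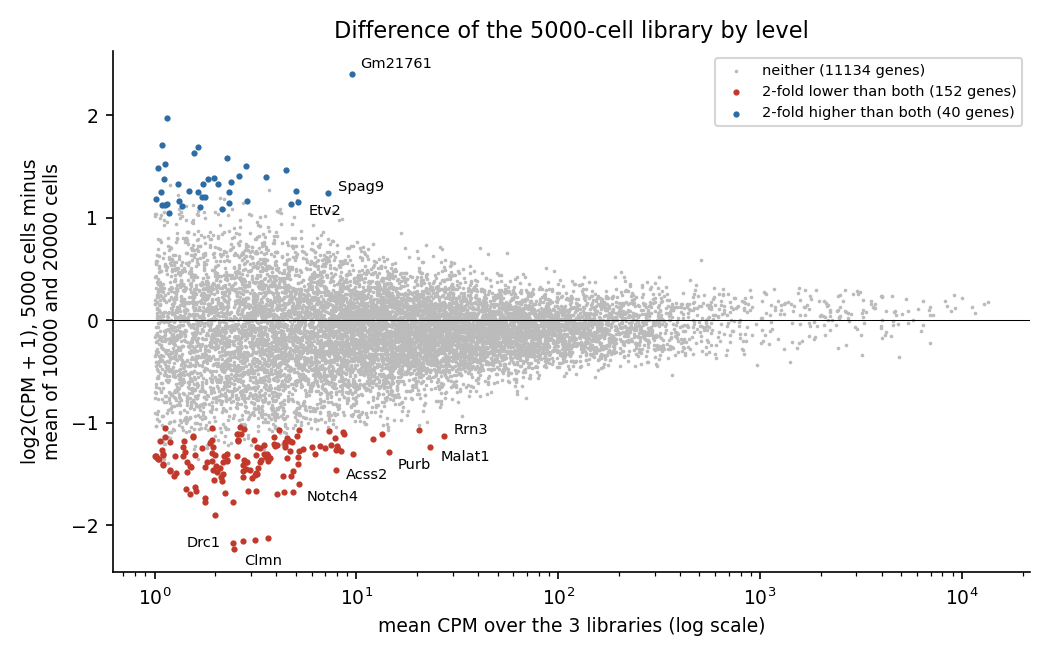
Each point is 1 of the 11326 genes tested. The horizontal axis is the mean CPM over the 3 libraries on a log scale and the vertical axis is the log2(CPM + 1) of the library from 5000 cells minus the mean of the other 2. Red points are the 152 lower genes and blue points the 40 higher ones. The cloud narrows as the level rises, no red point lies above 27.1 CPM and no blue point above 9.53 CPM, and Gm21761 stands alone at 2.40.

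The genes higher with 5000 cells were fewer and lower in level, with 4 of at least 5 CPM. Their median level was 3.61 CPM with 5000 cells, 0.774 with 10000 and 0.832 with 20000. Gm21761, a predicted gene (chromosome 13, 119912035 to 119913468), had 356 counts with 5000 cells, 88 with 10000 and 34 with 20000. Its experiment 1 counts were 237 and 212, above both larger inputs of experiment 2, and the 5000-cell value, 21.2 CPM, was above all 4 larger inputs. Plac8, a small cysteine-rich protein (chromosome 5, 100553733 to 100572205), had 148, 38 and 79 counts, and 272 and 328 in experiment 1. For Plac8 the 5000-cell value lay between the days.

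Spag9, a scaffold of JNK signalling (chromosome 11, 93996091 to 94126083), had 206, 85 and 79 counts, with 72 and 83 in experiment 1. Etv2, an ETS factor of endothelial and blood progenitors (chromosome 7, 30633616 to 30635852), had 146, 57 and 63, with 55 and 91 in experiment 1. In both genes the library from 5000 cells was above all 4 larger inputs. Of other high genes, named after their values were seen, Tead4, a factor of the trophoblast lineage that stem cells also express, had 143, 32 and 59 counts, and Sox18, an endothelial factor, had 60, 11 and 19. The endothelial receptor Cd93 had 48, 6 and 0 counts and 0 in both experiment 1 libraries. Beside these, the summed endothelial markers were 7.22 CPM with 5000 cells, 6.51 with 10000 and 7.59 with 20000. Cdh5 and Kdr were at 0 with 5000 cells, with 3 and 19 counts at 10000 cells and 0 and 5 at 20000, while Pecam1 had 115, 72 and 148 counts. Tek, an endothelial receptor of the wider list, had 43, 16 and 8 counts. The 5 trophoblast markers summed to 5.91, 5.22 and 4.85 CPM, with Ascl2 at 63, 25 and 38 counts, Elf5 at 10, 0 and 0, and Eomes at 11, 41 and 43. No marker of either type was called lower or higher. Their part in the higher genes was not tested.

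Complete absence was judged apart from the fold. Genes with 0 counts in 1 library and at least 10 in each of the other 2 numbered 148 for 5000 cells, 1.25% of 11794 genes that could meet the rule (1.07% to 1.47%). They numbered 19 for 10000 cells (0.165%) and 16 for 20000 (0.139%). In pairs, 658 genes were at 0 with 5000 cells and had at least 10 counts with 10000, against 139 the other way. With 20000 cells the pair gave 341 against 137. Between 10000 and 20000 cells the numbers were 68 and 255, so the library from 10000 cells lacked the fewest.

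These absences also followed level. Where the smaller count of the other 2 libraries was 10 to 19, 121 of 1010 genes were at 0 with 5000 cells (12%), and where it was 20 to 29, 22 of 699 were (3.15%). From 30 to 49 counts 3 of 1017 genes were at 0, from 50 to 99 counts 2 of 1532, and from 100 counts 0 of 7536. The 2 genes with the highest counts elsewhere were Clmn and Drc1. Clmn, a membrane protein with calponin domains (chromosome 12, 104763114 to 104865076), had 0 counts with 5000 cells, 66 with 10000 and 65 with 20000. Against a floor of 3 counts in that library it was at least 17.8-fold lower than in either. Drc1, part of the dynein regulatory complex of cilia (chromosome 5, 30281388 to 30366708), had 0, 75 and 51 counts and was at least 14-fold lower. Experiment 1 had 55 and 35 counts of Clmn and 56 and 23 of Drc1, so both were counted in every library but that from 5000 cells.

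The next 8 genes at 0 have unrelated roles. Alox12, a lipoxygenase (chromosome 11, 70241455 to 70255341), had 0, 37 and 43 counts and was at least 11.8-fold lower. Disp3, of the Dispatched family (chromosome 4, 148236857 to 148287965), had 0, 37 and 39. Trp53cor1, a long noncoding RNA induced by p53 (chromosome 17, 29057474 to 29079126), had 0, 27 and 41. The sialyltransferase St6gal1 (chromosome 16, 23224740 to 23360350) had 0, 33 and 30, and the lactonase Pon3 (chromosome 6, 5220852 to 5256233) had 0, 24 and 30. Met, the receptor of hepatocyte growth factor (chromosome 6, 17463957 to 17573980), had 0, 31 and 27 counts. The bounds for these 5 ran from at least 7.39-fold for Met to at least 10.7-fold for Disp3. The prion protein gene Prnp (chromosome 2, 131909928 to 131938436) had 0, 36 and 26, and the zinc finger gene Zfp708 (chromosome 13, 67069398 to 67097976) 0, 28 and 31, and both overlap another gene on the same strand.

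Of the 148 genes at 0 with 5000 cells, 31 were also at 0 in the experiment 1 library from 10000 cells (20.9%) and 6 in that from 20000 cells (4.05%). Among 1566 genes with smaller counts of 10 to 29 that were not at 0 with 5000 cells, these shares were 6.32% and 0.958%. The median count of the 148 in experiment 1 was 9 with 10000 cells and 11 with 20000, against 19 and 21 for the 1566. The genes at 0 thus had lower counts on the other day too. They also sat lower within that class, with a median smaller count of 13 for the 143 of them in it against 18, so the groups are not matched in level.

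The same outside reference was used for the called genes. The 5000-cell value, which the rule itself used, was below both experiment 1 libraries in 142 of the 152 lower genes, and above both in 34 of the 40 higher genes. Over all 11326 genes it was below both in 5327 and above both in 3550. When a gene had to be 2-fold under all 4 larger libraries, 65 were lower, and 19 were higher. Between the 2 experiment 1 libraries the lower genes of 1 to 3 CPM had a median absolute difference of 0.36, against 0.38 for all genes of that level. For those of 3 to 10 CPM the values were 0.37 and 0.31.

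By function, the following groups had a median above that of all genes. None of the 87 cytosolic ribosomal protein genes, which build the ribosome, was lower or higher, as was true of every gene above 30 CPM. Their median difference was 0.09, made of 0.05 against 10000 cells and 0.16 against 20000. With 5000 cells 53 of the 87 were over both larger inputs by any amount and 10 were under both, where 25.2% and 49.5% of all genes were. For 10000 cells the corresponding shares of all genes were 32.4% over and 27.6% under, and for 20000 cells 42.4% and 22.9%. Together they took 36.0% of the counts with 5000 cells, 34.6% with 10000 and 32.5% with 20000, and 32.2% and 32.7% in experiment 1. Rpl41 had 14611 CPM with 5000 cells, 13301 with 10000 and 12472 with 20000.

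The nuclear genes of the respiratory chain, 94 tested, had a median of 0.07. Of these, 43 were over both inputs and 20 under both (45.7% and 21.3%, where 25.2% and 49.5% of all genes were). The 78 mitochondrial ribosomal proteins had a median of 0.02, with 35 over and 26 under (44.9% and 33.3%). Against experiment 1, though, their median lay 0.02 under that of all genes. The 17 host genes of small nucleolar RNAs had a median of 0.08, though against 10000 cells alone it was -0.02. The 17 interferon-stimulated genes had the highest median among lists with at least 12 members, 0.14, with 9 over both and 4 under (52.9% and 23.5%). Against 10000 cells alone their median was 0.15, and against 20000 it was 0.30. Ifitm1, a membrane protein that restricts viruses, had 1522 CPM with 5000 cells, 1360.4 with 10000 and 1365 with 20000. Ifitm2 had 396, 316 and 315. These differences are well under 2-fold. The Ifitm genes are the abundant end of this list, whose median level was 3.62 CPM.

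The 13 mRNAs encoded in mitochondrial DNA went the other way, with a median of -0.24. Against 10000 cells alone it was -0.35 and against 20000 -0.21, where the medians of all genes were -0.08 and -0.13. With 5000 cells 12 of the 13 were under both larger inputs (92.3%) and none was over both, where 49.5% and 25.2% of all genes were. CYTB, of respiratory complex III, had 4072 CPM with 5000 cells, 5203 with 10000 and 5269 with 20000. COX1, of complex IV, had 780, 1024 and 1085, and ND4, of complex I, had 1158, 1581 and 1494. The exception was ND2, also of complex I, at 2112, 2537 and 1998 CPM, inside the range of the larger inputs. Their share of counts was 1.62% with 5000 cells, 1.98% with 10000 and 1.91% with 20000, and 2.22% and 2.02% in experiment 1. The mitochondrial and the nuclear genes of the respiratory chain thus lay on opposite sides of the median of all genes. In bulk samples fewer cells of a kind and less RNA per cell cannot be told apart.

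All 29 genes of replication licensing and DNA synthesis were tested, with a median of -0.21 and none called. Of these, 22 were under both larger inputs and 3 over both (75.9% and 10.3%, where 49.5% and 25.2% of all genes were). Mcm5, a subunit of the replicative helicase, had 711 CPM with 5000 cells, 775 with 10000 and 968 with 20000, and Mcm6 had 446, 508 and 596. The 24 mitosis genes had a median of -0.17, with 16 under and 4 over (66.7% and 16.7%), and Top2a had 310, 353 and 375 CPM. Against experiment 1 the mitosis median lay 0.04 over that of all genes, so its place depended on the experiment it was set against. The 12 tested DNA methylation genes had a median of -0.26, with 8 under and 2 over (66.7% and 16.7%). Dnmt1, which maintains methylation, had 138, 156 and 183 CPM, and Dnmt3l, a cofactor of the enzymes that set new methylation, had 219, 250 and 261. The 25 Polycomb genes had a median of -0.21, with 12 under and 6 over, a share under both close to that of all genes. Against 10000 cells alone the Polycomb median was -0.08, where that of all genes was also -0.08, and against 20000 cells it was -0.17. The 19 glycolysis genes had a median of -0.17, but -0.08 against 10000 cells alone, level with all genes, and 0.11 over all genes against experiment 1. Gapdh was over both inputs, and Ldha had 3842, 3721 and 4277 CPM.

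**Figure D4:**
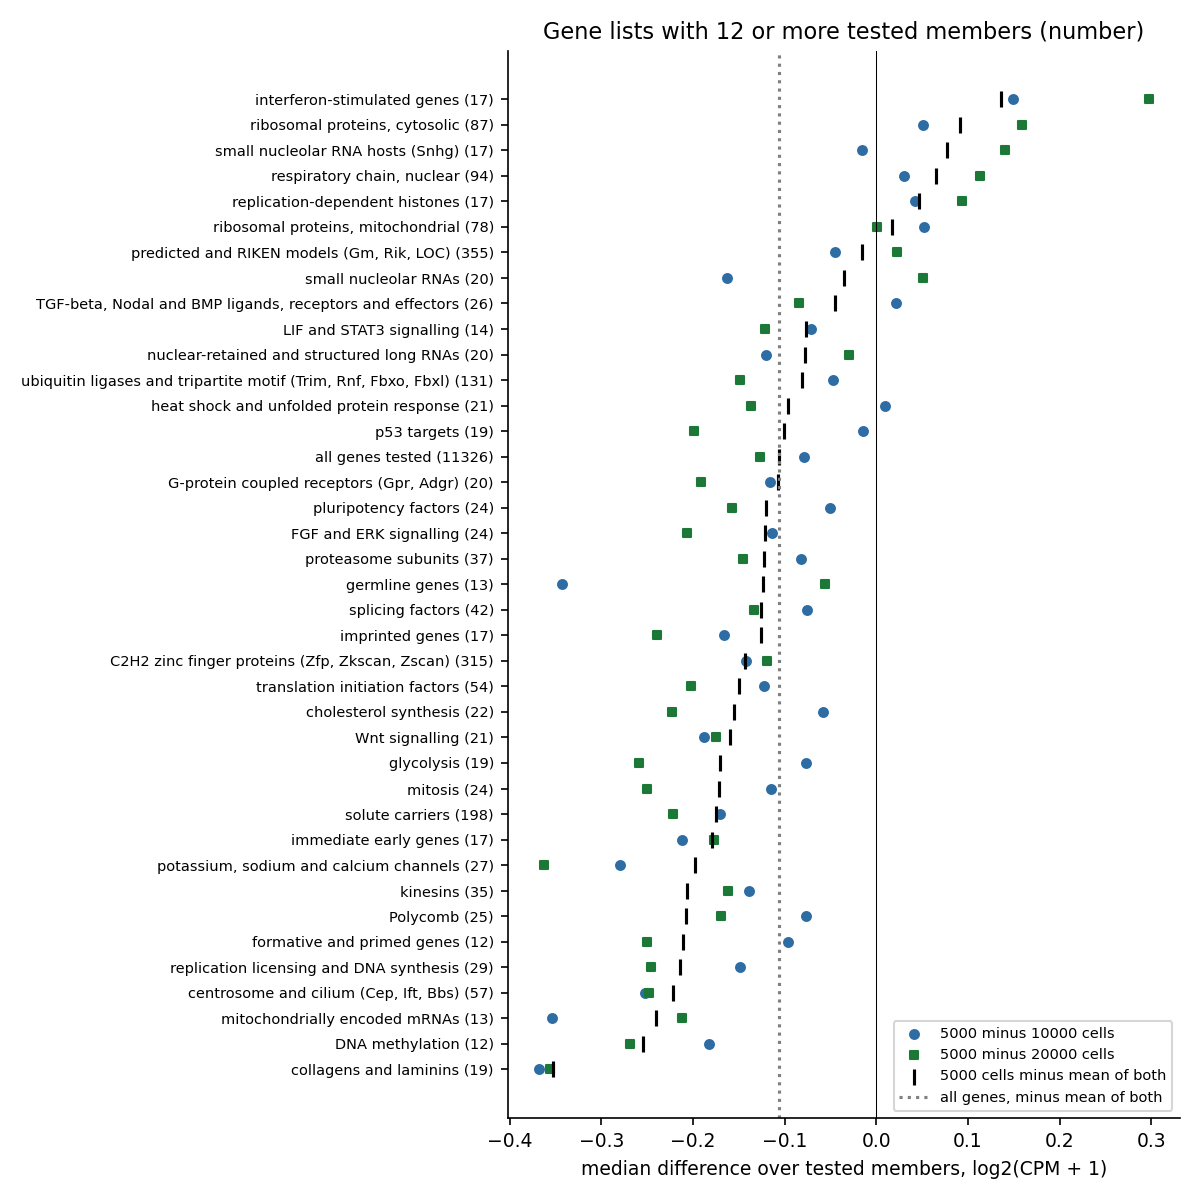
Median difference in log2(CPM + 1) over the tested members of each gene list with at least 12 of them (number in brackets), 5000 cells minus 10000 (blue circles), minus 20000 (green squares) and minus the mean of both (black bars). The dotted line at -0.11 is the median of all 11326 genes. Ribosomal, respiratory chain and interferon-stimulated genes lie right of it in both comparisons, and collagens and laminins lie farthest left at -0.35.

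Pluripotency genes had a median close to that of all genes, though they were more abundant, with a median level of 119 CPM. All genes of 30 to 100 CPM had a median of -0.11, and those of 100 CPM and over -0.04. The 24 tested pluripotency genes had a median of -0.12 with none called, 14 under both larger inputs and 4 over both (58.3% and 16.7%, where 49.5% and 25.2% of all genes were). Dppa5a had 1548 CPM with 5000 cells, 1652 with 10000 and 1521 with 20000, Klf2 had 517, 476 and 544, and Zfp42 had 466, 430 and 432. The following lists each held 1 lower gene among few tested, where 1.34% of all genes were lower. The 14 tested genes of LIF and STAT3 signalling had a median of -0.08, with Jak2 the 1 lower gene at 0.418, 1.87 and 2.35 CPM. The 12 tested formative and primed genes, which mark exit from the naive state, had a median of -0.21, but -0.10 against 10000 cells alone, where that of all genes was -0.08, with Zic2 lower at 15, 62 and 97 counts. Experiment 1 had 6 and 16 counts of Zic2, so the 5000-cell value was within that day's range, and against experiment 1 this list's median was 0.14 over that of all genes. Of the 8 tested early neural genes, the adhesion molecule Ncam1 was lower, at 28, 87 and 149 counts, and Stmn2 had 157, 132 and 122 CPM. Of 17 imprinted genes Peg10, a gene derived from a retrotransposon and needed in the placenta, was lower at 40, 109 and 120 counts.

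Other lists held single calls or a few. Collagens and laminins, proteins of the extracellular matrix, had the lowest median of the lists with at least 12 tested members, -0.35, with 13 of 19 tested members under both larger inputs and 2 over both (68.4% and 10.5%, where 49.5% and 25.2% of all genes were). Col5a3 (16, 50 and 73 counts) and Col9a2 (12, 62 and 72 counts) were lower, 2 of 19 where 1.34% of all genes were. The median level of the 19 was 3.16 CPM. Of all genes of 1 to 3 CPM 4.04% were lower, and of those of 3 to 10 CPM 2.24%. Col18a1, an abundant member, had 104, 135 and 150 CPM. Against experiment 1 the list lay even further below all genes, by 0.66. Its summed level was 292 CPM with 5000 cells, 382 with 10000 and 405 with 20000. In experiment 1 it was 435 and 497, above the larger inputs of experiment 2 too. Of the fibroblast markers, which share the collagens, Col1a1 had 2 counts with 5000 cells, 14 with 10000 and 10 with 20000, and Fbn1 had 0, 16 and 21, while Thy1 had 164, 105 and 144. Whether a few fibroblast-like cells differed between tubes was not tested.

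Centrosome and cilium genes had a median of -0.22, with 36 of 57 under both and 9 over both (63.2% and 15.8%). Ift140, of the transport complex inside cilia, was the 1 lower gene of the 57, at 75, 163 and 227 counts. The 35 tested kinesins had a median of -0.21, with Kif26a lower. Of the 44 kinesins in the table, Kif17 and Kif27 were among the genes at 0, a rule that 1.25% of the genes able to meet it met. Against experiment 1 the kinesin median was 0.17 over that of all genes. Solute carriers had 4 lower members of 198 (2.02%, against 1.34% of all genes), Slc25a42, Slc35g1, Slc37a1 and Slc4a2, and none higher. The median level of this list was 7.36 CPM, and of all genes of 3 to 10 CPM 2.24% were lower. The median difference of the solute carriers was -0.18, with 114 under both and 44 over (57.6% and 22.2%). Among 20 tested G-protein coupled receptors Adgra2 and Gpr83 were lower (10%, against 1.34% of all genes and 2.24% of those of 3 to 10 CPM). The median level of these receptors was 6.91 CPM.

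C2H2 zinc finger proteins, the largest family of transcription factors, had 11 lower members of 315 tested, 3.49% where 1.34% of all genes were lower. These were Zfp12, Zfp14, Zfp286, Zfp420, Zfp446, Zfp592, Zfp708, Zfp81, Zfp810, Zfp963 and Zkscan8. Zfp12 had 23, 108 and 126 counts and Zfp446 had 14, 78 and 72. Of these 11, Zfp592 alone reached a mean of 10 CPM, and the others lay in the bins where 4.04% and 2.24% of genes were lower. Zfp369, at 95, 12 and 43 counts, and Zfp947, at 65, 20 and 27, were higher. The median of the 315 was -0.14, close to that of all genes, so most zinc finger genes did not stand apart.

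The remaining lists held few calls, where 1.34% of all genes were lower. Of 54 translation initiation factors Eif2ak3, the kinase PERK that slows translation under stress of the endoplasmic reticulum, was lower at 7, 42 and 54 counts (1 of 54, 1.85%). Of 131 ubiquitin ligase and tripartite motif genes Fbxl4 was lower at 20, 56 and 72 (0.763%). Among signalling lists no member was lower or higher in 26 TGF-beta, Nodal and BMP genes (median -0.05), 24 FGF and ERK genes (-0.12) or 21 Wnt genes (-0.16), a list that does not hold Wnt11. None was called either among 42 splicing factors, 37 proteasome subunits, 22 genes of cholesterol synthesis, 21 of the heat shock and unfolded protein response and 19 targets of p53, with medians from -0.16 to -0.10. The 17 immediate early genes, which respond within minutes to stimuli, had a median of -0.18 and no call. The 27 ion channels had a median of -0.20 and no call.

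Of 64 replication-dependent histone genes, whose mRNA mostly lacks a poly(A) tail and is poorly caught by oligo-dT, 17 were tested, with a median of 0.05 and none called. Of these 17, H2bc4 alone reached a mean of 10 CPM, and it had 10.4 CPM with 5000 cells, 12.3 with 10000 and 13.0 with 20000. Among 244 long noncoding RNAs tested, 3 were lower and 7 higher (2.87%, where 0.353% of all genes were higher). Their median difference was 0.05, against -0.11 for 10973 protein-coding genes, but their median level was 3.47 CPM against 13.9. Among 20 listed nuclear or structured noncoding RNAs Malat1 was the 1 lower gene, and Gas5 had 601 CPM with 5000 cells, 619 with 10000 and 489 with 20000. Predicted and RIKEN gene models had 3 lower and 8 higher members of 355, with a median of -0.02. In this list, and among long noncoding RNAs, called genes were more often higher than lower, while protein-coding genes had 148 lower and 33 higher. These calls are few, and the list and the long noncoding RNAs may share genes. The list was also low in level, with a median of 4.17 CPM. Of all genes of 1 to 3 CPM 1.63% were higher, and of those of 3 to 10 CPM 0.245%.

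Genes that span more of the genome had lower values with 5000 cells. Span counts introns and is not the length of the mRNA. The 152 lower genes spanned a median of 34.5 kb (quartiles 13.3 and 80.9), the 40 higher ones 18.2 kb, the 148 at 0 28.7 kb, and all tested genes 21.1 kb. The gap was narrower among genes of like level: at 1 to 3 CPM the lower genes spanned 28.5 kb against 22.8 for all, and at 3 to 10 CPM 36.1 against 26.2. Over all tested genes the median difference of the 5000-cell library was 0.05 under 2 kb, -0.06 from 5 to 10 kb, -0.14 from 20 to 50 kb and -0.18 from 100 kb. Between 10000 and 20000 cells these medians were 0.03, -0.09, -0.02 and 0.03, with no such slope. Against 10000 cells alone the medians were 0.03, -0.01, -0.12 and -0.20, and against 20000 alone 0.05, -0.11, -0.16 and -0.16. At 3 to 10 CPM the difference to 20000 cells was -0.02 under 2 kb and already -0.15 from 2 to 5 kb, with -0.14 at 100 kb and over, so the slope among longer genes there was against 10000 cells only. Lower genes made up 0.238% of the 420 genes under 2 kb and 2.63% of the 1177 genes of 100 kb and over.

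At 100 CPM and over, where counting error is small, the median difference was 0.09 for 107 genes under 2 kb, -0.01 from 5 to 10 kb, -0.15 from 20 to 50 kb and -0.13 for 23 genes of 100 kb and over. Between 10000 and 20000 cells at that level it went from 0.07 to -0.06, -0.09 and -0.08 in the same classes. So part of the slope among the most abundant genes was also seen between the 2 larger inputs, and in experiment 1 the medians between 10000 and 20000 cells were -0.02, -0.01, -0.03 and -0.03. The function lists differ in span in the same sense: collagens and laminins tested here spanned a median of 105 kb and cytosolic ribosomal proteins 2.97 kb. How much of the list differences goes with span was not tested. Among the autosomes and chromosome X, the median difference per chromosome ran from -0.14 on chromosome 2 to -0.07 on chromosome X. The mitochondrial genes, given above, lay outside this range at -0.24.

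**Figure D5:**
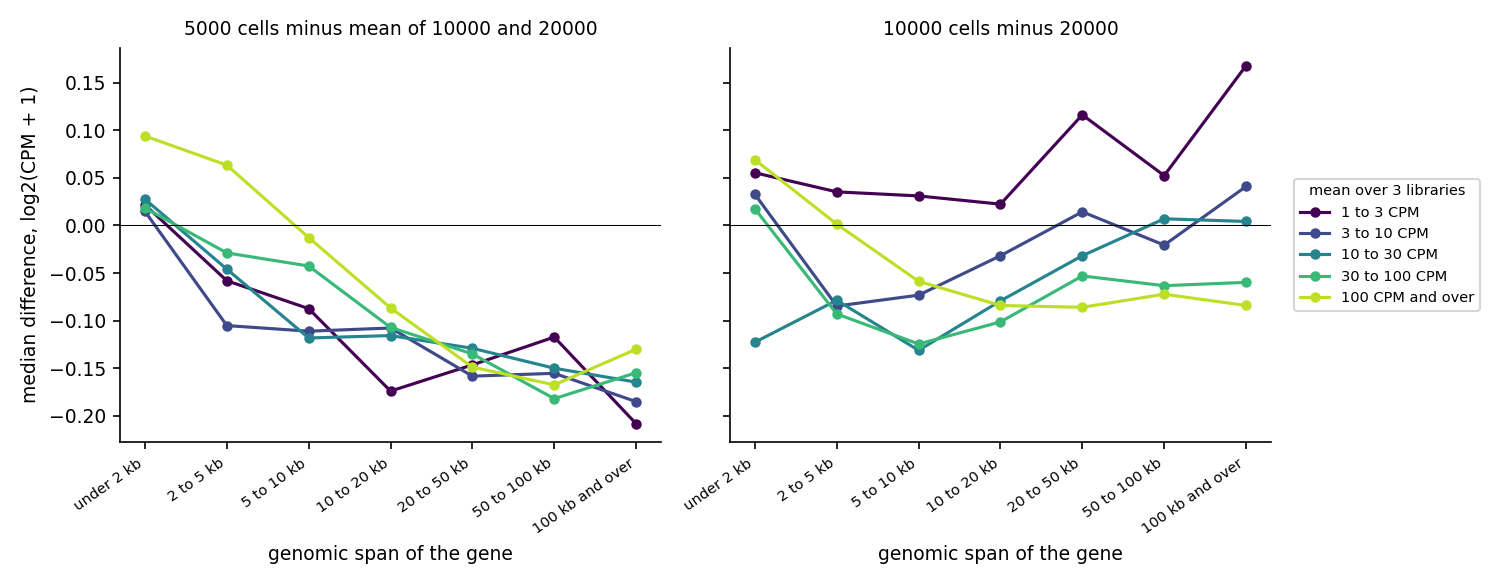
Median difference in log2(CPM + 1) (vertical axis) by the genomic span of the gene (horizontal axis), 1 line for each level bin. Left, 5000 cells minus the mean of 10000 and 20000. Right, 10000 minus 20000. On the left all 5 lines start above 0 under 2 kb and end between -0.21 and -0.13 at 100 kb and over, while on the right the lines do not share one direction.

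The ATAC libraries of the same tubes allowed 1 further comparison that the rule did not use. The deposited peak lists of experiment 2 hold 18637 peaks with 5000 cells, 29870 with 10000 and 49508 with 20000, so shares are compared within a list only. In the 5000-cell list 44.7% of the lower genes had a peak within 1000 bp of their start (37.1% to 52.7%), against 55.8% of all tested genes. Within level bins the gap was small. Between 1 and 3 CPM 37.8% of the lower genes and 37.1% of all genes had such a peak, and between 3 and 10 CPM 51.6% and 52.2%. Genes at 0 had a peak in 29.7%, and all genes with a smaller count of 10 to 29 in the other libraries in 31.3%. Of the higher genes 25% had one (14.2% to 40.2%). At matched level the promoters of genes lower in mRNA from 5000 cells thus had a peak from 5000 cells about as often as other promoters, within counting error. The genes at 0 are not matched in level with their class. In the list from 10000 cells they had a peak in 37.8% (30.4% to 45.9%), against 45.6% of that class. In the list from 20000 cells the shares were 57.4% and 61.4%. In the list from 20000 cells, 63.4% of lower genes and 67.5% of all genes of 1 to 3 CPM had a peak, and 81.3% and 80.0% of those of 3 to 10 CPM.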

How the data were processed

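The authors deposited 1 table of whole-number read counts by gene, whose header gives the coordinates as mm10. The submitters' processing notes name the build mm10 and the tools STAR 2.5, featureCounts and Subread 1.5.0-p1, cutadapt, Bowtie2 2.1.0, SAMtools 1.3.1, Picard, bedtools 2.24.0 and MACS2 2.1.1, with no role or order. The annotation, whether counting used strand, and how multiply matching reads were counted are not given in the sources used here. Peak lists were deposited by the authors as genome intervals with no score. No reads or molecular identifiers were used, so intervals cover counting error only.

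CPM were computed from the sum over all genes (13727122 to 20426252 over the 5 mRNA libraries). Differences were taken on log2(CPM + 1) for genes whose mean in the 3 libraries reached 1 CPM. Calls are as defined in the text. No differential test was run, since 5000 cells have 1 library. Scaling factors for the alternatives came from edgeR 4.0.16 (R 4.3.3). Other steps ran in Python 3.11.15 with numpy 2.4.6, pandas 2.3.3, statsmodels 0.14.6 and matplotlib 3.10.9. The rules were tested on simulated counts, with changes planted only in genes of at least 10 CPM. Recovery at the lower levels, where most calls lie, was not tested. Gene types came from a RefSeq table that matched 24463 of 24470 genes by ID. A gene's start is the 5′ end of its span in the table. Genes sharing reads with copies or overlapping genes are uncertain.

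Members, rules and gene lists were chosen with earlier results of these data known. The histone pattern was altered and the olfactory and vomeronasal list was added after the counts had been seen. Named genes are the 12 with the largest fall and up to 12 with the largest rise among called genes of at least 5 CPM, of which 4 were higher. To these come the 10 genes at 0 with the largest smaller count elsewhere, called and most abundant list members, and Pou5f1, Sox2, Nanog, Actb and Gapdh. Others are said to be named after their values were seen. Of 49 lists, those with under 12 tested members are given only where a member was called, as markers or, for the chemosensory receptors, for their low counts. Alternatives were other pseudocounts, filters, folds and scalings, thinning, other count minimums and leaving out libraries.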

Additional observations from a re-analysis of the deposited data

How the results depend on the processing

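No paired analysis was possible because the results come from no test: the comparison lies within experiment 2, where each cell number has 1 library. A fit over all 5 libraries with experiment as a block was not run. The 152 lower genes became 421 with a pseudocount of 0.1, 0 with 5, 6 at a mean of at least 10 CPM, 269 when set against the mean of both inputs, 724 at 1.5-fold and 65 against all 4 larger libraries. Leaving out the library from 10000 or 20000 cells gave 289 to 353. The 40 higher genes became 97, 1, 0, 73, 190 and 19 under the same settings, 89 with no filter on low values, and 96 to 110 with either library left out. The 148 genes at 0 became 27 with at least 20 counts elsewhere, 502 with at least 5, and 341 to 658 with either library left out. Most of these settings loosen or tighten the rule by construction. The counts stayed within 1.5-fold with TMM (124 and 56) or RLE scaling (121 and 59) and after thinning (149, 44 and 115 at 0). The median absolute difference to both inputs went from 0.43 to 0.65 at 1 to 3 CPM, from 0.34 to 0.39 at 3 to 10 and from 0.23 to 0.25 at 10 to 30 CPM with a pseudocount of 0.1. At 10 to 30 CPM it was 0.22 with TMM scaling and 0.22 after centring, which was chosen after seeing the data. Of 44 list medians set against that of all genes, 1 changed sign with TMM, 1 with a pseudocount of 0.1, 9 at 10 CPM, 6 without 10000 cells, 7 without 20000 and 16 with the experiment 1 libraries as comparators. The last was chosen after seeing the data. Among the 16 lists past 0.1, 2 changed sign at 10 CPM, 2 with the experiment 1 libraries and 1 without 20000 cells. The list medians therefore depend on these choices, the larger ones included.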
